A study of Mus musculus with 26 samples.

Results

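The SIX-EYA-DACH network was examined through 7 mouse genes, Six4, Six5, Eya1, Eya2, Eya3, Eya4 and Dach1, which were found by symbol among 54146 gene identifiers. Expression was measured by RNA sequencing in cells cultured from mouse bone marrow and transformed with MLL-AF9 (MA9), a fusion oncogene of acute myeloid leukemia. The tested libraries were 3 of MA9+SETDB1, cells that carried MLL-AF9 together with SETDB1, an enzyme that methylates histone H3 on lysine 9. They were set against 3 libraries of MA9+EV, cells that carried MLL-AF9 together with the empty MSCV puromycin vector. In both groups lineage-negative marrow cells had been infected with retrovirus, grown for 8 to 12 weeks with IL-3 and SCF, and selected with puromycin for about 3 to 6 weeks. The series calls the 3 libraries of a group biological replicates, but no label says that they came from separate transductions, so p-values reflect how these 6 libraries vary, which may be partly technical. The species of the introduced SETDB1 sequence is not given. The comparison asks which of these genes differ when SETDB1 is overexpressed in the leukemia cells.

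SIX-family proteins are homeodomain transcription factors that bind DNA directly. EYA proteins do not bind DNA themselves but join SIX-family proteins as coactivators, and they also carry a protein phosphatase domain. DACH proteins, relatives of the SKI corepressors, bind DNA and often repress transcription. The network is best known from the development of eye, ear, kidney and muscle, and EYA1 is among the genes reported to respond to MLL fusion proteins in mouse blood progenitors.

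The members divided sharply. Six4, Eya1 and Dach1 were lower in MA9+SETDB1, Eya4 was higher, and no call was made for Six5 and Eya3. Eya2 had too few reads for a test. Of the 6 members that passed the low-count filter, 3 were called lower and 1 higher at an edgeR quasi-likelihood adjusted p under 0.05. Over all 12986 tested genes, 26.2% were called lower and 27.4% higher, together 53.5%, so the number of members called is near the background and what follows concerns their sizes and patterns. The libraries of the 2 groups did not overlap for 5 of the 6 tested members, against 64.6% of all tested genes. All MA9+SETDB1 libraries lay above all MA9+EV libraries for Six5 and Eya4, as for 32.1% of all tested genes, and below them for Six4, Eya1 and Dach1, as for 32.5%. The median log2 fold change was -0.72 over the 6 tested members and -0.01 over all tested genes.

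**Figure D1:**
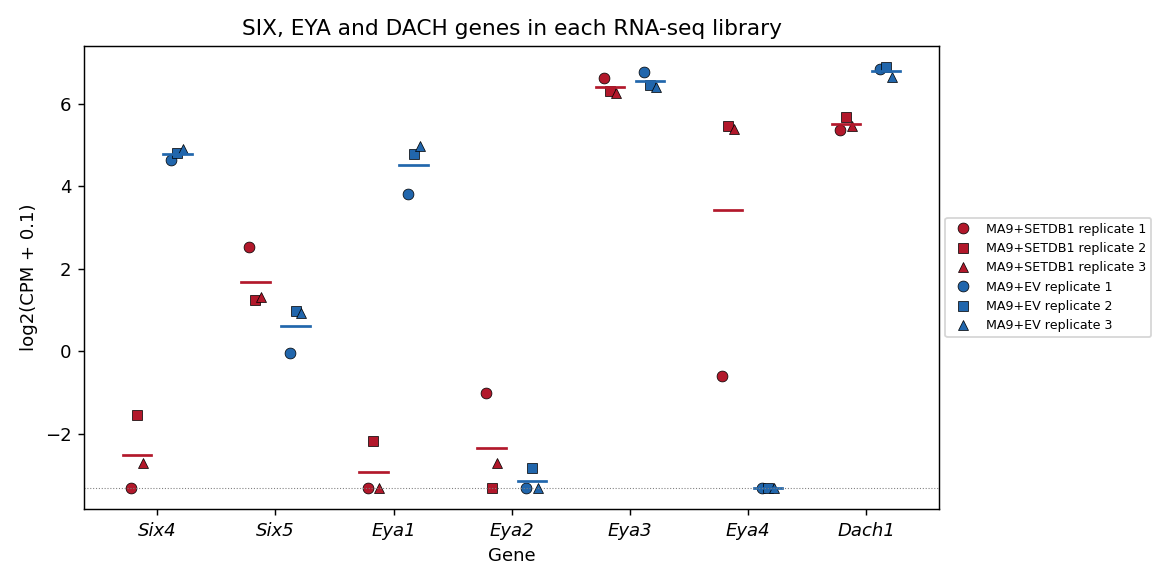
Expression of the 7 genes in each library, as log2 of CPM (counts scaled to library size) plus 0.1; red points are MA9+SETDB1 and blue points MA9+EV, the symbol gives the replicate, bars are means of the log2 values, and the dotted line marks 0 counts. Six4 and Eya1 lie at or near the dotted line in the 3 MA9+SETDB1 libraries and well above it in the 3 MA9+EV libraries, while Eya4 lies on it in the 3 MA9+EV libraries.

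Total gene counts were between 18070482 and 22561757 per library. Setdb1 itself stood at 475, 605 and 607 CPM in MA9+SETDB1 replicates 1, 2 and 3, against 105, 108 and 109 CPM in MA9+EV replicates 1, 2 and 3, so the labels match the gene that was introduced. Replicates 2 and 3 of each group were close to each other and replicate 1 stood apart: the difference in counts between replicates 1 and 2, as a chi-square per degree of freedom, was 93.9 in MA9+SETDB1 and 88.1 in MA9+EV, whereas that between replicates 2 and 3 was 3.14 and 4.29 in MA9+SETDB1 and MA9+EV. The groups also differed widely in blood lineage genes. Summed levels of 10 neutrophil genes were 44.87 to 126.5 CPM in MA9+SETDB1 and 14290 to 18750 CPM in MA9+EV, with all 10 called lower. Those of 9 mast cell and basophil genes were 9952 to 10240 CPM in MA9+SETDB1 and 48.2 to 84.6 CPM in MA9+EV, with 8 of 8 tested genes called higher, and those of 10 erythroid genes were 1554 to 1905 CPM in MA9+SETDB1 and 0.785 to 1.51 CPM in MA9+EV, with all 10 called higher. Of 9 monocyte and macrophage genes 2 were called higher and 6 lower, with sums of 499 to 1329 CPM in MA9+SETDB1 and 1018 to 2227 CPM in MA9+EV. Lineage and SETDB1 cannot be told apart in any result below, since every MA9+SETDB1 library carries both. In such bulk libraries, fewer cells that use a gene and less RNA of it per cell cannot be told apart either.

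Of the other tissues in which this network is used, only skeletal muscle had a marker list here, with none for eye, ear or kidney. The 6 skeletal muscle genes summed to 1.06 to 3.53 CPM in MA9+SETDB1 and 0.454 to 1.36 CPM in MA9+EV, and the muscle regulators Myod1 and Myf5 had no counts in any library. Des was called higher at a low level, 1.55 CPM in MA9+SETDB1 and 0.340 CPM in MA9+EV on average (log2 fold change 2.21, edgeR adjusted p = 0.0426). Of 4 endothelial genes Cdh5, Kdr and Tek had no counts, and the sums of 126.5 to 133.7 CPM in MA9+SETDB1 and 229.7 to 364.8 CPM in MA9+EV came from Pecam1, which leukocytes also use. The 7 stromal genes summed to 35.9 to 83.1 CPM in MA9+SETDB1 and 1.08 to 1.61 CPM in MA9+EV, largely from Pdgfrb, while the collagen genes Col1a1, Col1a2 and Col3a1 had at most 7 counts in a group. The 5 B cell genes reached at most 3.36 CPM in MA9+SETDB1 and 4.05 CPM in MA9+EV, with Pax5 at 0, and the 4 T cell genes at most 7.12 and 6.76 CPM in MA9+SETDB1 and MA9+EV, with Cd3e at 0 and Cd3g at 4, 49 and 45 reads in MA9+SETDB1 replicates 1, 2 and 3 and none in MA9+EV. Of 4 leukocyte and progenitor genes 2 were called higher and 2 lower. The higher ones were the progenitor gene Cd34, at 9.43 ± 2.70 CPM in MA9+SETDB1 and 0.155 ± 0.154 CPM in MA9+EV, and the leukocyte gene Spn, at 829 ± 104 and 527 ± 111 CPM in MA9+SETDB1 and MA9+EV. The lower ones were the SCF receptor gene Kit, at 1.07 ± 1.22 CPM in MA9+SETDB1 and 114 ± 3.01 CPM in MA9+EV, and the pan-leukocyte gene Ptprc, at 105 ± 21.0 CPM in MA9+SETDB1 and 370 ± 84.7 CPM in MA9+EV (SD, n = 3 each).

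Six4 (ENSMUSG00000034460.9, GRCm38 chromosome 12, 73099609 to 73114031, protein-coding) encodes a SIX-family factor known from muscle, kidney and neuronal development. It had 0, 4 and 1 reads in MA9+SETDB1 replicates 1, 2 and 3, against 597, 679 and 594 reads in MA9+EV replicates 1, 2 and 3. In CPM, which are counts scaled to library size, these were 0, 0.244 and 0.0519 in MA9+SETDB1, against 24.7, 28.2 and 29.9 in MA9+EV. Every MA9+SETDB1 library was far below every MA9+EV library, and in CPM the MA9+EV libraries differed little among themselves. The ratio of normalized counts was 293.8-fold lower in MA9+SETDB1 (95% exact binomial interval 125.7 to 906, counting error only). The fit put the log2 fold change at -8.11 (edgeR adjusted p = 5.45e-05, SE 0.56), the 209th lowest of 12986 tested genes. Of the 5 reads left in MA9+SETDB1, 4 came from replicate 2, and without that library the fitted change was -9.71 (edgeR adjusted p = 0.000103).

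The 250 bases upstream of a Six4 start site, from RefSeq on GRCm38.p6 (chr12:73113246-73113495, minus strand), are shown because they hold a copy of MEF3, the element that SIX-family proteins themselves bind. The search covered MEF3 (TCAGGTTTC), the core AGATAA bound by GATA factors, the core TGACAG bound by MEIS factors and TATAAA, the core of a basal promoter element, on both strands, and capitals mark every match.
Six4: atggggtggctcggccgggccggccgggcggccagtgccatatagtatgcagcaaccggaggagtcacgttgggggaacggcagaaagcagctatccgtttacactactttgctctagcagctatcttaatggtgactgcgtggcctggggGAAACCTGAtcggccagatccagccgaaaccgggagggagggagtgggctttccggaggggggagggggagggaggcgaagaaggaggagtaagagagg
The match lies on the strand opposite to the gene and begins 99 bases before the start site. MEF3 was present in 127 of 32851 upstream windows of the same length in the mouse table (0.387%). It was in no other window searched for these genes, which were a second window of Six4, 2 windows of Eya4, and Six5, Eya3 and Dach1. No window was available for Eya1 or Eya2, so they were not searched. The Six4 window shown lies inside the annotated spans of Six4 and of the overlapping gene Mnat1. A match of letters is a description and not a measured binding site.

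Six5 (ENSMUSG00000040841.5, GRCm38 chromosome 7, 19094544 to 19098549, protein-coding) encodes the SIX-family factor whose gene lies just downstream of Dmpk, the myotonic dystrophy kinase gene. Its levels were 5.65, 2.25 and 2.39 CPM in MA9+SETDB1 replicates 1, 2 and 3, against 0.867, 1.87 and 1.81 CPM in MA9+EV replicates 1, 2 and 3. The 3 MA9+SETDB1 values lay above the 3 MA9+EV values, but replicates 2 and 3 of the groups were close and replicate 1 was the highest library of the one and the lowest of the other. The fitted log2 fold change of 1.18 (SE 0.50, 95% interval 0.00 to 2.36) did not pass (edgeR adjusted p = 0.0838), and without MA9+SETDB1 replicate 1 it was 0.63 (edgeR adjusted p = 0.204). With 184 reads over the MA9+SETDB1 libraries and 102 over the MA9+EV libraries, a change of Six5 of the size fitted was not resolved at this depth and spread.

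Eya1 (ENSMUSG00000025932.14, GRCm38 chromosome 1, 14168953 to 14311035, protein-coding) encodes the EYA coactivator mutated in branchio-oto-renal syndrome. It had 0, 2 and 0 reads in MA9+SETDB1 replicates 1, 2 and 3, against 339, 664 and 621 in MA9+EV replicates 1, 2 and 3. The MA9+EV libraries stood at 14.0, 27.6 and 31.3 CPM, so replicate 1 had the lowest level of that group, and each was far above the highest MA9+SETDB1 library at 0.122 CPM. Normalized counts were 637.9-fold lower in MA9+SETDB1 (95% exact binomial interval 176.3 to 5272, counting error only). The fit put the log2 fold change at -9.12 (edgeR adjusted p = 0.00011, SE 0.74), the 126th lowest of the tested genes. Without MA9+SETDB1 replicate 2, which held both of the reads in that group, the fitted value was -12.00 and rests on a group with no reads.

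Eya2 (ENSMUSG00000017897.18, GRCm38 chromosome 2, 165595028 to 165771727, protein-coding) was close to absent. It had 7, 0 and 1 reads in MA9+SETDB1 replicates 1, 2 and 3, against 0, 1 and 0 in MA9+EV replicates 1, 2 and 3. The groups overlapped, and a count of 3 in a library corresponds to between 0.124 and 0.183 CPM. The ratio of 10.18 of MA9+SETDB1 over MA9+EV has a counting interval of 1.365 to 451.9 and rests mainly on the 7 reads of a single library. Without the low-count filter Eya2 was not called (edgeR adjusted p = 0.198).

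Eya3 (ENSMUSG00000028886.15, GRCm38 chromosome 4, 132639025 to 132724765, protein-coding), the most widely expressed EYA gene in mammals, was not called. Its levels were 98.6, 79.8 and 76.3 CPM in MA9+SETDB1 replicates 1, 2 and 3, against 109.6, 88.2 and 85.6 CPM in MA9+EV replicates 1, 2 and 3. The groups overlapped, with replicate 1 the highest library of each. For Eya3 the log2 fold change was -0.15 (edgeR adjusted p = 0.411, SE 0.15), and its 95% interval of -0.51 to 0.20 leaves room for changes in either direction that are small beside those of Eya1 and Eya4.

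Eya4 (ENSMUSG00000010461.15, GRCm38 chromosome 10, 23102962 to 23350838, protein-coding), known for its roles in hearing and heart muscle, had no reads in any MA9+EV library. In MA9+SETDB1 it had 10, 721 and 812 reads in replicates 1, 2 and 3, which is 0.559, 43.9 and 42.2 CPM. Replicates 2 and 3 were thus alike and replicate 1 was close to the level of the control, with a difference between replicate 1 and the mean of the other two of -6.03 on the log2 scale. That difference was the 4th largest of 12986 genes in the MA9+SETDB1 group. Some lineage genes also set replicate 1 apart, in both directions, and others did not. The 9 mast cell and basophil genes summed to 9952 to 10240 CPM over the MA9+SETDB1 libraries. Of these, Fcer1a stood at 1402, 1455 and 1576 CPM in MA9+SETDB1 replicates 1, 2 and 3, and Ms4a2 at 1755, 1646 and 1656 CPM. By contrast, the mast cell gene Cpa3 stood at 1647 CPM in MA9+SETDB1 replicate 1 and at 548.5 and 515.1 CPM in replicates 2 and 3. The histamine synthesis gene Hdc had 1125 CPM there and 2383 and 2358 CPM in the other two, and the macrophage gene Adgre1 had 372.6 CPM there and 1223 and 1172 CPM in the other two. Their part in the level of Eya4 was not tested. Set against an assumed floor of 3 reads over the MA9+EV group, Eya4 was 654.7-fold higher, a value that depends on that floor. The lower limit of its exact binomial interval was 531.8-fold (counting error only). The call (edgeR adjusted p = 0.0189) carried an SE of 2.83 on a fitted log2 fold change of 12.19, a value that depends on the prior count because the MA9+EV group is at 0. With replicates 2 and 3 of each group summed into 1 library the call was lost (edgeR adjusted p = 0.0565). Without MA9+SETDB1 replicate 1 the fitted value was 12.81 (edgeR adjusted p = 6.41e-05), and with the replicate number as a block the adjusted p was 0.00115. A filter of at least 1 CPM in 3 libraries removes the gene.

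The 250 bases upstream of an Eya4 start site (RefSeq, GRCm38.p6, chr10:23349944-23350193, minus strand) are shown for their base composition.
Eya4: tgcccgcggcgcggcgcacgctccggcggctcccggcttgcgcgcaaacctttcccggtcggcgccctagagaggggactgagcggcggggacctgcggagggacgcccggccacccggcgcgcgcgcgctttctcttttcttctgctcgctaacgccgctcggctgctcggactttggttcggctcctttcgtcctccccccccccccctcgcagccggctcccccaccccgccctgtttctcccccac
With 35 CpG dinucleotides, this window had a CpG observed-over-expected ratio of 1.07, and 97% of the 32851 windows were at or below it. A second Eya4 window (chr10:23349891-23350140) had 25 CpG dinucleotides and a lower ratio of 0.892, with 87.8% of windows at or below it. The ratios were 0.70 and 0.642 for the windows of Six4, 0.546 for Six5, 0.857 for Eya3 and 0.761 for Dach1, against a median of 0.373 over all windows. None of the 4 motifs was found in this stretch.

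Dach1 (ENSMUSG00000055639.16, GRCm38 chromosome 14, 97786846 to 98169765, protein-coding) fell less steeply than Six4 and Eya1 and stayed well expressed. Its levels were 41.2, 51.1 and 44.4 CPM in MA9+SETDB1 replicates 1, 2 and 3, against 116.1, 119.1 and 101.4 CPM in MA9+EV replicates 1, 2 and 3. Both groups were tight and did not overlap, with means of 45.6 ± 5.06 CPM in MA9+SETDB1 and 112.2 ± 9.46 CPM in MA9+EV (SD, n = 3 each). The fit put the log2 fold change at -1.30 (edgeR adjusted p = 0.000206, SE 0.12, 95% interval -1.59 to -1.01). Its range over all 13 alternative settings was -1.39 to -1.22.

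The Dach1 upstream window (RefSeq, GRCm38.p6, chr14:98169766-98170015, minus strand) is shown beside that of Six4, which fell with it.
Dach1: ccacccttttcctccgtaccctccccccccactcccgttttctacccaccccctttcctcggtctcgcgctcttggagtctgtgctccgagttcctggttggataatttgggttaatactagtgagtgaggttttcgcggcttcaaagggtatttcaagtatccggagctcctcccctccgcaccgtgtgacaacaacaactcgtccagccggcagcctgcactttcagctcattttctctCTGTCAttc
The capitals mark a MEIS core that begins 9 bases before the start site, on the strand opposite to the gene. The same core occurred in 15.9% of all windows, including that of Six5, and the GATA core and TATAAA, present in 9.99% and 12.4% of all windows, were in none of those searched here.

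**Figure D2:**
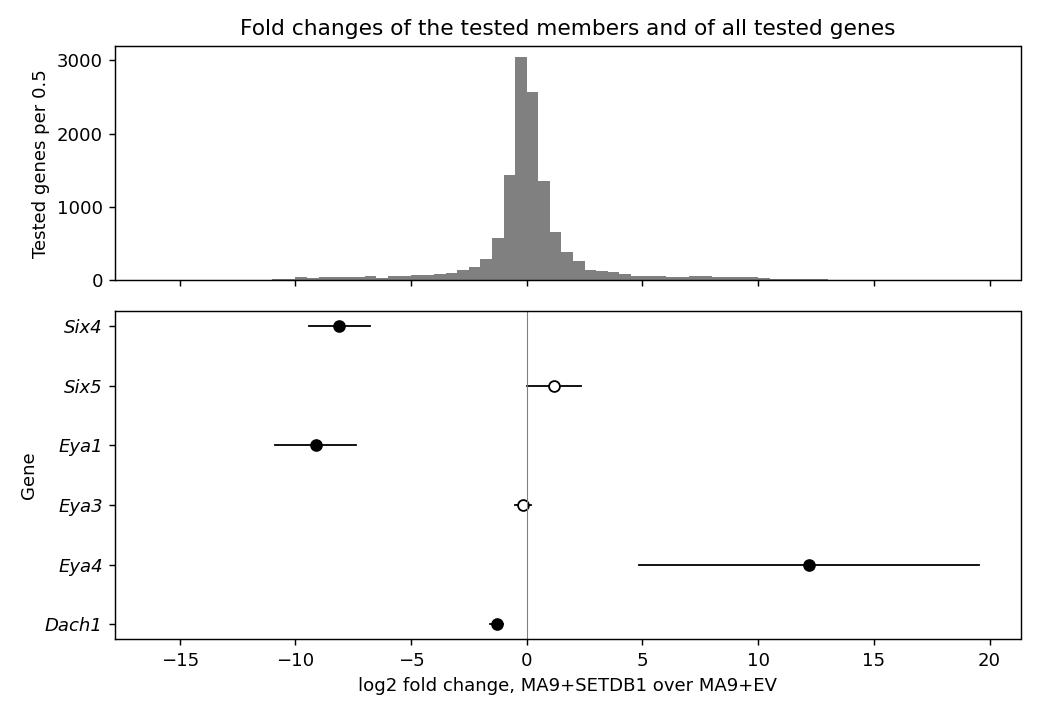
Fitted log2 fold changes of MA9+SETDB1 over MA9+EV. The upper panel counts all 12986 tested genes in bins of 0.5, and the lower panel gives each tested member with its 95% interval, filled where the edgeR adjusted p was under 0.05. Six4 at -8.11 and Eya1 at -9.12 lie in the sparse lower tail and Eya4 at 12.19 in the upper tail, where its value depends on the prior count, while Eya3 at -0.15 lies in the centre.

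Most reads of the EYA genes came from Eya3 in both groups, 4543 of 6096 in MA9+SETDB1 and 6481 of 8106 in MA9+EV. Beyond Eya3 the groups differed, in that Eya1 reads were found almost exclusively in MA9+EV, and Eya4 reads were found in no MA9+EV library. MA9+SETDB1 had 2 reads of Eya1 and 1543 of Eya4, of which replicate 1 held 10, whereas MA9+EV had 1624 of Eya1 and 0 of Eya4. Levels of different genes were not compared, since transcript lengths were not used here.

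**Figure D3:**
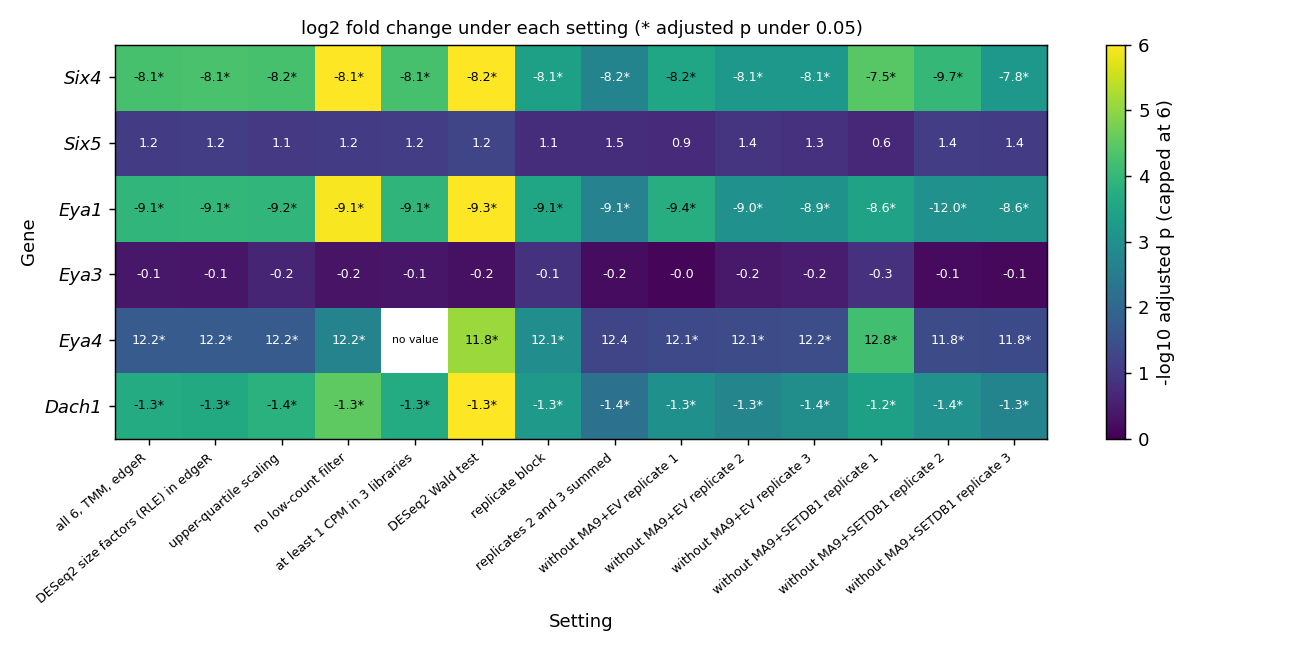
Fitted log2 fold change of each tested member (printed number) under each setting, with shading for -log10 of the adjusted p, capped at 6, and an asterisk where it is under 0.05. Six4, Eya1 and Dach1 carry an asterisk in all columns, Six5 and Eya3 in none, and Eya4 in all but the summed replicates and the 1 CPM filter, where it has no value.

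Of other SIX-family and DACH-family genes reported here, Six2, a kidney progenitor factor, was called higher (edgeR adjusted p = 0.00215). It had 39, 140 and 165 reads in MA9+SETDB1 replicates 1, 2 and 3 and none in MA9+EV. By the same floor of 3 reads it was 146-fold higher, with a lower exact binomial limit of 118.1-fold. As for Eya4, its lowest MA9+SETDB1 library was replicate 1. Six6 had no reads and Six3 had 1, and Dach2 had 12 reads in MA9+EV and none in MA9+SETDB1. Of 9 PAX genes, transcription factors that act with SIX-family and EYA proteins in several organs, 8 were too low for a test. The exception was Pax8, a thyroid and kidney factor, with 0.336, 0.183 and 0.623 CPM in MA9+SETDB1 replicates 1, 2 and 3, against 11.9, 22.9 and 24.5 CPM in MA9+EV replicates 1, 2 and 3. The log2 fold change of Pax8 was -5.65 (edgeR adjusted p = 0.000158, SE 0.50), with the lowest MA9+EV level in replicate 1, as for Eya1.

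Corepressors that SIX-family or DACH proteins recruit, with their relatives, had 4 of 15 tested members higher and 2 lower, and a median log2 fold change of 0.02. Over all tested genes 27.4% were higher and 26.2% lower, with a median of -0.01, and with so few genes nothing is read from the counts of this and the following lists. Ski, whose product is related to DACH1, averaged 129 ± 20.9 CPM in MA9+SETDB1 and 61.5 ± 1.25 CPM in MA9+EV (SD, n = 3 each; log2 fold change 1.07, edgeR adjusted p = 0.000643). Its paralog Skil went the other way, with 5.51 ± 3.28 CPM in MA9+SETDB1 and 17.4 ± 3.49 CPM in MA9+EV (log2 fold change -1.66, edgeR adjusted p = 0.0136, or 0.0823 with replicates 2 and 3 summed). The Groucho corepressor gene Tle3 rose by a log2 fold change of 1.33 and the SIN3 scaffold gene Sin3b by 1.01 (edgeR adjusted p = 0.000628 and 0.00061). Aes, a short Groucho relative, passed narrowly (edgeR adjusted p = 0.0499) and was not called when any library other than MA9+SETDB1 replicate 1 was left out (edgeR adjusted p 0.0941 to 0.161). With the replicate block Tle1 was called higher and Tle4 lower (edgeR adjusted p = 0.0136 and 0.0466), but with replicates 2 and 3 summed neither was (edgeR adjusted p = 0.166 and 0.518). Hdac1, Hdac3, Sin3a, Ncor1 and Smad4 were not called, with log2 fold changes between -0.08 and 0.10.

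Of 14 genes reported as targets of SIX-family proteins in other tissues, 8 were tested, 3 of them were higher and none lower, and the median log2 fold change was 0.74. The 3 were Dmpk, the insulin-like growth factor binding protein gene Igfbp5 and the membrane linker gene Ezr. Igfbp5 stood at 109.6, 31.4 and 28.8 CPM in MA9+SETDB1 replicates 1, 2 and 3 and had no reads in MA9+EV. Against the floor of 3 reads it was 1285-fold higher (edgeR adjusted p = 0.00143), or 681.5-fold without MA9+SETDB1 replicate 1. With all libraries the lower exact binomial limit was 1045-fold. Ezr had 220.6, 504.4 and 488 CPM in MA9+SETDB1 replicates 1, 2 and 3, against 120.2, 132.7 and 137.1 CPM in MA9+EV replicates 1, 2 and 3 (log2 fold change 1.64, edgeR adjusted p = 0.00401). The cotransporter gene Slc12a2 missed the threshold (log2 fold change -2.66, edgeR adjusted p = 0.0565) and was called lower with the block (edgeR adjusted p = 0.0299), while Aldoa was then called higher (0.0307), and with replicates 2 and 3 summed neither was called (edgeR adjusted p = 0.206 and 0.429). Aldoa is uncertain, since its symbol matched more than 1 identifier, of which the one with the most reads was used, and near-identical copies may share its reads. Without MA9+SETDB1 replicate 1, Slc12a2 was at -5.32 (edgeR adjusted p = 0.000378). Myc was not called (log2 fold change -0.23, edgeR adjusted p = 0.252, but 0.0301 without MA9+EV replicate 1), and the muscle targets Myog and Myod1 and the kidney target Gdnf had at most 2 reads in a group.

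Of 8 genes reported as repressed by DACH1 in other cells, 5 were tested, 2 were higher and none lower, and the median log2 fold change was 2.48. The interleukin gene Il6 had 3078, 18931 and 24448 reads in MA9+SETDB1 replicates 1, 2 and 3, against 3, 2 and 1 in MA9+EV replicates 1, 2 and 3 (edgeR adjusted p = 0.00017). The growth factor gene Fgf2 had 156, 15 and 28 reads in MA9+SETDB1 replicates 1, 2 and 3 and none in MA9+EV. Against the floor of 3 reads it was 84.4-fold higher (edgeR adjusted p = 0.0133), with a lower exact binomial limit of 68.03-fold. Replicate 1 carried much of that floor value, which was 27.4-fold without it (edgeR adjusted p = 0.00339). Jun was not called, at 14.0 ± 6.49 CPM in MA9+SETDB1 and 14.0 ± 6.75 CPM in MA9+EV (edgeR adjusted p = 0.997). The cyclin gene Ccnd1, a much studied DACH1 target, had 12 reads over the MA9+EV libraries and none in MA9+SETDB1. Il6 and Fgf2 were higher in the same libraries in which Dach1 was lower, and whether Dach1 has a part in that was not tested.

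Substrates and partners of the EYA phosphatases had 2 of 10 tested members higher and 4 lower, with a median log2 fold change of -0.32. H2afx, the gene for the histone variant that EYA proteins dephosphorylate, averaged 89.2 ± 8.45 CPM in MA9+SETDB1 and 89.6 ± 35.9 CPM in MA9+EV (edgeR adjusted p = 0.987). Among the 4 lower genes were Mdc1, whose product binds that histone variant (log2 fold change -0.80, edgeR adjusted p = 0.00179), and Baz1b, which encodes a kinase of it (log2 fold change -0.68, edgeR adjusted p = 0.0379). Mapk8 fell by 0.88 on the log2 scale and its paralog Mapk9 rose by 0.57 (edgeR adjusted p = 0.012 and 0.0113), and neither was called with replicates 2 and 3 summed (edgeR adjusted p = 0.0883 and 0.109). Gnaz, a G protein gene whose product binds EYA2, had 491, 302 and 319 reads in MA9+SETDB1 replicates 1, 2 and 3, against 3, 2 and 1 in MA9+EV replicates 1, 2 and 3 (log2 fold change 7.79, edgeR adjusted p = 1.62e-05). Ppp2r2a was lower by a log2 fold change of -0.42 (edgeR adjusted p = 0.0308). The Baz1b call was lost without any library other than MA9+SETDB1 replicate 1 (edgeR adjusted p 0.0513 to 0.124), and that of Ppp2r2a without any MA9+EV library or MA9+SETDB1 replicate 3 (edgeR adjusted p 0.056 to 0.0947). With replicates 2 and 3 summed neither Baz1b nor Ppp2r2a was called (edgeR adjusted p = 0.16 and 0.137).

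**Figure D4:**
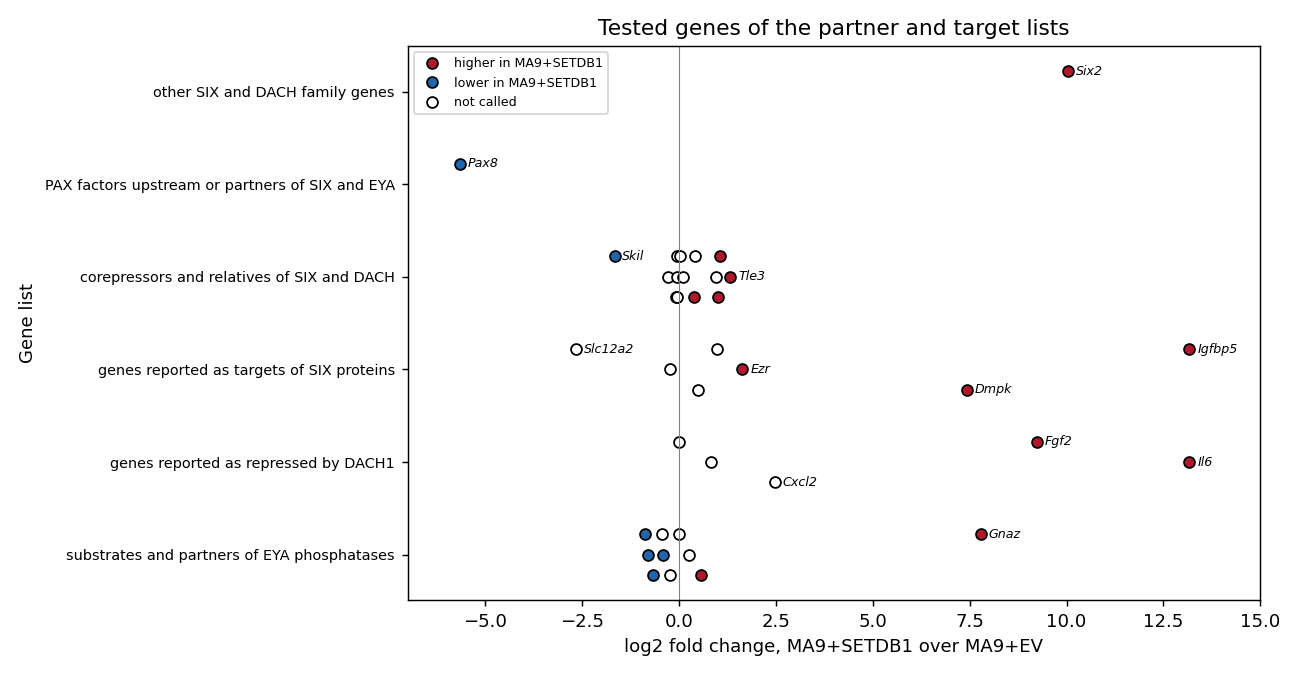
Log2 fold change of MA9+SETDB1 over MA9+EV for the tested genes of the 6 lists that are reported here, with filled points for genes called higher (red) or lower (blue) by edgeR and open points for the rest; the vertical offset only separates points. The corepressor and phosphatase lists have medians of 0.02 and -0.32 over all their tested genes, with genes called in both directions in each list. The far points are Six2, Igfbp5, Il6, Fgf2, Gnaz and Dmpk on the right and Pax8 on the left.

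In the RefSeq annotation Six4 overlaps Mnat1, a cyclin-dependent kinase assembly factor gene, which fell by 0.56 on the log2 scale (edgeR adjusted p = 0.0257). The strand setting of the counting is not given, so reads in the stretch shared by Six4 and Mnat1 are uncertain. The same holds for Six5, which overlaps Bhmg1, a gene whose symbol was not found among the counted genes. Further from Six4, Slc38a6 fell by 0.83 on the log2 scale (edgeR adjusted p = 0.0122). Trmt5 was not called (log2 fold change -0.31, edgeR adjusted p = 0.0804). Of the genes nearest to Eya1, Xkr9 was too low for a test, with 10 reads in MA9+SETDB1 and 0 in MA9+EV, and neither of the tested pair was called. Lactb2 and Tram1 on one side were at log2 fold changes of 0.06 and 0.24 (edgeR adjusted p = 0.81 and 0.304), and Msc, Trpa1 and Kcnb2 on the other had no reads. Around Eya4, Tcf21, Slc18b1 and Vnn3 had no reads, while Tbpl1 rose by a log2 fold change of 0.77 and Rps12 fell by 0.74 on the log2 scale (edgeR adjusted p = 0.0269 and 0.0146).

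Six5, which was not called, lies beside neighbours that rose. Dmpk, which ends 723 bases before Six5 begins, had 101, 47 and 43 reads in MA9+SETDB1 replicates 1, 2 and 3, against 0, 0 and 1 in MA9+EV replicates 1, 2 and 3. Its normalized level was 243.1-fold higher in MA9+SETDB1 (95% exact binomial interval 43.12 to 9652, counting error only), with an edgeR adjusted p of 0.000437. Dmwd, the next gene, averaged 62.3 ± 0.51 CPM in MA9+SETDB1 and 1.84 ± 1.33 CPM in MA9+EV (SD, n = 3 each; log2 fold change 5.10, edgeR adjusted p = 0.000552). On the other side Qpctl and Snrpd2 rose by log2 fold changes of 0.72 and 0.37 (edgeR adjusted p = 0.0022 and 0.0189), and Fbxo46 was not called (log2 fold change 0.47, edgeR adjusted p = 0.0894). Replicate 1 was the highest MA9+SETDB1 library for Dmpk as for Six5. The difference between the changes of Dmpk and Six5 was not tested.

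**Figure D5:**
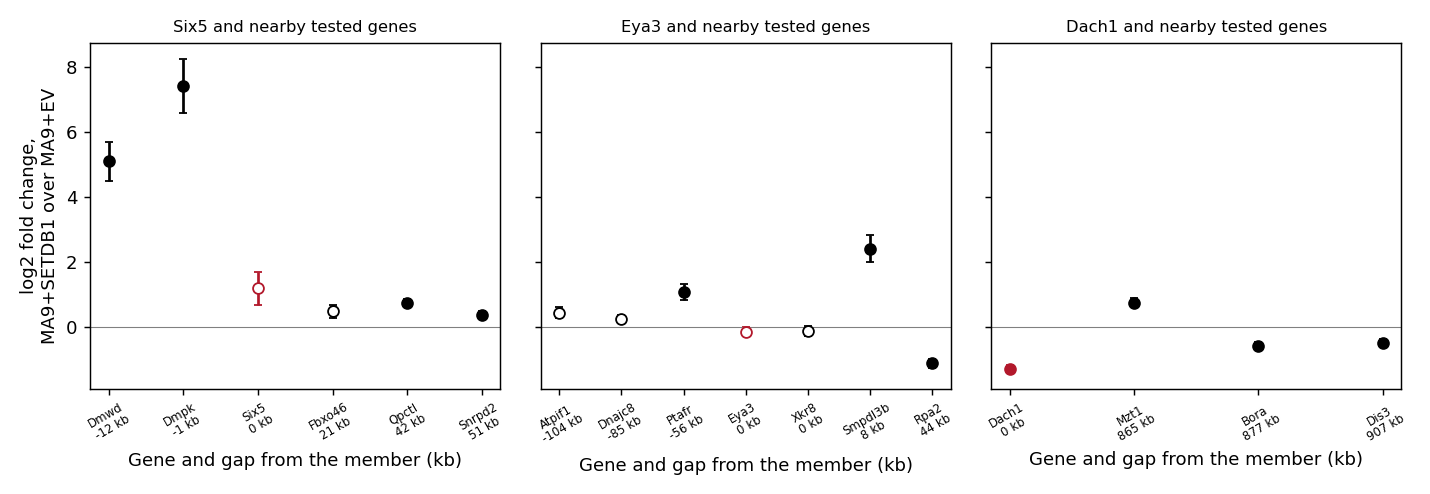
Log2 fold change of MA9+SETDB1 over MA9+EV for Six5, Eya3 and Dach1 (red) and nearby tested genes (black) in their order along the chromosome, with the gap in kilobases; bars are 1 SE and open points were not called. Dmpk at 7.42 and Dmwd at 5.10 stand above Six5 at 1.18, and the neighbours of Eya3 and Dach1 lie between -1.13 and 2.40.

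Dach1 lies in a gene-poor stretch, with Klhl1 unexpressed on one side and its nearest expressed neighbour, Mzt1, 864779 bases away on the other. Mzt1 rose by a log2 fold change of 0.74, and the mitotic regulator gene Bora and the exosome nuclease gene Dis3 fell by 0.59 and 0.50 on the log2 scale (edgeR adjusted p = 0.00384, 0.00544 and 0.0135). Beside Eya3, Ptafr and Smpdl3b rose by log2 fold changes of 1.07 and 2.40, and the replication protein gene Rpa2 fell by 1.13 on the log2 scale (edgeR adjusted p = 0.0115, 0.00292 and 0.000543), while Xkr8, which begins 136 bases beyond the end of Eya3, was not called (edgeR adjusted p = 0.507). Over the 6 members other than Six4, 12 of 21 tested neighbours were called (57.1%), against 53.5% of all tested genes.

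The genes whose levels followed those of a member most closely over the 6 libraries were found by Pearson correlation of log2 CPM. For Six4, Eya1 and Dach1 it mostly reflects the contrast between the 2 groups. For Six4 these were Tma16, Il15ra and Psmg1 (r = 0.9994 each), for Eya1 Ticam2, G0s2 and Cnksr3 (0.9994 to 0.9996) and for Dach1 Mrps6, Mfng and Rai1 (0.9966 to 0.9976). Of 11028 eligible genes, 2111 were above 0.9 for Six4, 2162 for Eya1 and 2070 for Dach1. For Eya4, Eya3 and Six5 the numbers were 1265, 399 and 218. Of the genes named, Il15ra, Ticam2, G0s2 and Cnksr3 were also nearly absent from MA9+SETDB1, with means of at most 0.0782 CPM there. Eya4, with its low replicate 1, was followed most closely by Pcgf6, Zpr1 and Lyrm1 (0.999 to 0.9997), Six5 by Ppp6r2, Esyt1 and Mex3a (0.9851 to 0.9987) and Eya3 by Epc1, Espl1 and Trappc8 (0.9969 to 0.9983). Epc1, Espl1 and Trappc8 were not called (log2 fold changes -0.24, -0.12 and -0.15, edgeR adjusted p = 0.404, 0.493 and 0.473). All 6 values of a gene share the libraries and their depth, and no p is given.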

How the data were processed

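RNA-seq was analysed for 3 MA9+SETDB1 and 3 MA9+EV libraries of the series' 26 samples, grouped by title; the 20 chromatin samples are not analysed here. Libraries were strand-specific and poly-A selected, per the labels' protocols. The authors deposited whole-number counts of reads per gene for GRCm38. The submitters' processing notes name STAR 2.6.0c and HTSeq 0.11.0 among other tools, without roles; no source used here gives the strand setting. The 5 summary lines, 24.6% to 26.3% of entries per library, were left out. Symbols matched 52480 identifiers by version and 1599 by stable identifier, and 67 stayed unmatched.

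Genes were filtered with filterByExpr, scaled with TMM and tested with edgeR's quasi-likelihood test (edgeR 4.0.16, R 4.3.3), with Benjamini-Hochberg adjustment over 12986 genes and a threshold of 0.05; simulated data were used to test the script. CPM are counts scaled to the TMM-adjusted library size over tested genes, SEs derive from the F statistic, and intervals of log2 fold changes come from the fit and include the spread between libraries. Intervals of ratios and floors (3 counts) cover counting error only. Fold changes are MA9+SETDB1 over MA9+EV. Alternatives were other scalings and filters, DESeq2 1.42.0, a replicate block, summed replicates 2 and 3, and leaving out each library. Same-numbered libraries deviated together (r = 0.257, 0.196 and 0.169 for numbers 1, 2 and 3), but 2 and 3 were not told apart (0.203 and 0.177 when crossed). The main fit used no pairing, and the replicate block was run only as an alternative.

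The members and lists were chosen with earlier results of these data known. Named genes are the members, genes of 6 partner and target lists, Setdb1, cell type markers, the 3 nearest protein-coding genes on each side, and for each tested member the 3 genes with the highest correlation among those of at least 1 CPM. Results for some genes that these rules took are not reported here. Levels per transcript length were planned and not run, since exon lengths were not used here. Promoter windows came from RefSeq.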

Additional observations from a re-analysis of the deposited data

How the results depend on the processing

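Six4, Eya1 and Dach1 kept their direction and their call, and Six5 and Eya3 their direction without a call, under all 13 alternatives, and Eya4 kept its call under 11 of 12. The replicate block changed no member's call and, among the list genes reported here, only those given beside their results. With replicates 2 and 3 summed, 2292 genes were called higher and 1928 lower, against 3554 and 3397 with all libraries, Eya4 was not called at 12.38, 0 members were called higher, 1 corepressor was lower, and 1 gene of the EYA partner list was called in each direction; this setting has fewer libraries. A filter of at least 1 CPM in 3 libraries left 0 members called higher and 1 gene of the DACH1 list, since Eya4 and Fgf2 were removed. Of the SIX-family target list, 1 gene was called lower without a low-count filter and with DESeq2, and 2 with the replicate block. Leaving out each library gave 0 to 2 genes lower in that list and 2 to 4 higher and 2 to 5 lower in the EYA partner list, against 0, 2 and 4 with all libraries, and 2992 to 4231 genes higher and 2727 to 4063 lower overall. Under upper-quartile scaling the median of all genes was -0.08, and no member changed direction. For Six5, its low counts and the distance of replicate 1 from the other libraries limit what could be resolved, while smaller changes were called in genes with more reads. The per-length alternative was not run.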
